A study of Homo sapiens and Mus musculus with 27 samples.

Results

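LM2 cells with high expression of the actin reporter LifeAct were compared with LM2 cells negative for it, over the 21869 of 59453 gene names that had enough counts to be tested. The comparison uses 6 of the 27 samples of the study, 3 LifeAct high and 3 LifeAct negative. LM2 is a lung-tropic subline of the human breast cancer line MDA-MB-231, and every LifeAct sample carries the genotype label WT. The treatment labels call the groups control (here LifeAct negative), low expression of LifeAct and high expression of LifeAct, with 3 samples each, and name no other allele or agent. The labels give neither the promoter of the reporter nor whether the groups are gates of 1 population or separate lines or clones. Comparisons were also made with the 3 LifeAct low samples, and with LM2 cells of another experiment of the study overexpressing caMKL1, a form of MKL1 (the older name of MRTFA) whose change the labels do not give, against their control, 3 samples each. The genotype labels of the caMKL1 samples end in a different digit for each replicate.

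LifeAct is a short peptide from yeast, fused to a fluorescent protein, that binds filamentous actin and labels it in living cells. In resting cells monomeric actin holds the cofactors MRTFA and MRTFB in the cytoplasm. When monomers are drawn into filaments, the cofactors enter the nucleus and switch on genes with the factor SRF, among them actin itself and other genes of the cytoskeleton. The study asked, per its title, about the MKL1 and SRF pathway as a target in breast cancer metastasis. Other programmes described here are the interferon response, in which interferon induces antiviral genes, and the NF-kB response, which switches on chemokines and cytokines.

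RNA was depleted of ribosomal RNA and sequenced as 150 bp read pairs, and each value is the number of read pairs assigned to a gene, given as CPM, the count relative to the library total, scaled by TMM. Library totals ran from 15625737 to 17129747 counts in LifeAct negative and from 15581289 to 23678322 in LifeAct high. Mitochondrially encoded genes took 3.60% to 4.34% of counts in the 9 LifeAct libraries. The 3 low libraries were below the 3 negative ones in this share, and the high libraries overlapped both. On the first principal component of the 500 most variable genes, with 89.2% of the variance, the negative and high libraries lay at opposite ends and the low libraries between them. The reporter is not among the annotated genes, so no gene in the table checks the labels. No label tells separate cultures from repeat libraries, so p-values measure only the spread between these samples, which was small, with a biological coefficient of variation of 0.0439. Markers of the line were present: CD44 averaged 482 ± 6.29 CPM in negative and 827 ± 23.5 CPM in high cells (SD, n = 3).

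Most of the transcriptome differed between the groups. At an adjusted p below 0.05, 7863 genes were higher in LifeAct high (36.0% of those tested) and 7691 were lower (35.2%), together 71.1%. Changes of 2-fold or more were fewer: 2488 genes were higher by that much (11.4%) and 3578 lower (16.4%). In such bulk samples, fewer cells of a type and less RNA per cell cannot be told apart. For 71.7% of genes the 3 high and 3 negative libraries did not overlap. The median log2 ratio of all genes tested was -0.03. The share called rose with the level of the gene, from 46.8% of 4249 genes under 1 CPM to 87.0% of 2314 genes at 100 CPM or more, so counts of called members of any list are to be read against these shares. For the 15554 genes called, the mean of the low libraries lay between the other two group means in 12951 (83.3%).

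**Figure D1:**
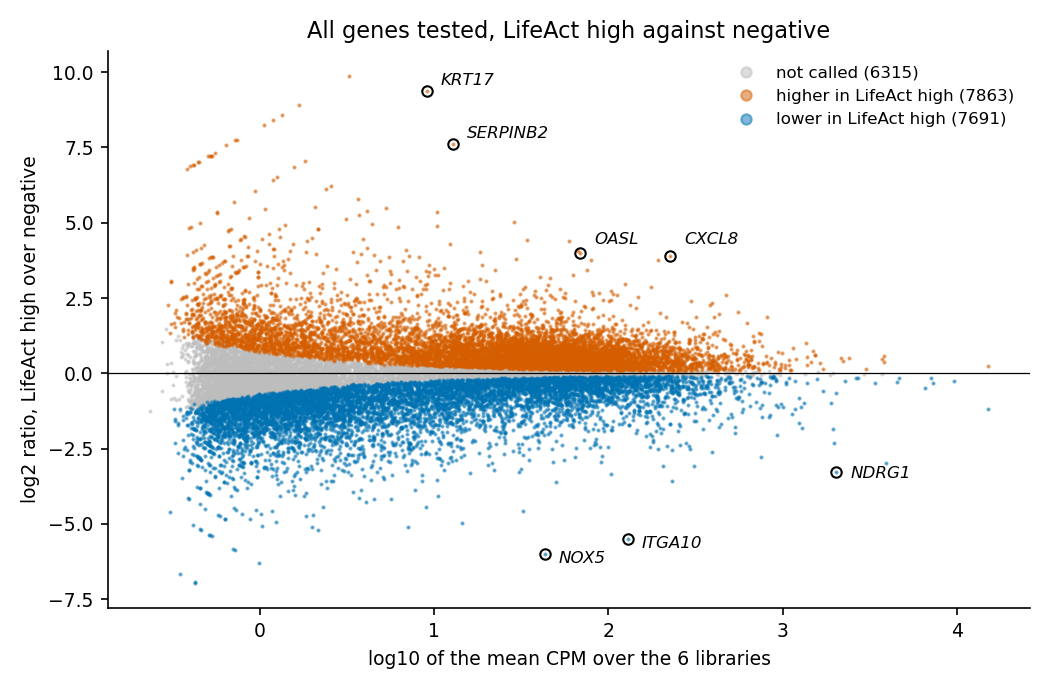
Log2 ratio of LifeAct high over negative (vertical axis) against log10 of the mean CPM over the 6 libraries (horizontal axis), 1 point per gene tested. Orange points are the 7863 genes called higher, blue points the 7691 called lower and grey points the 6315 not called; 7 genes named in the text are circled, with NOX5 and ITGA10 lying far below the other blue points of their level.

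The 4 genes that mark the contrast are a keratin, a serpin, an interferon-induced enzyme homologue and an oxidase. KRT17 (chr17:41619442-41624842, GRCh38, minus strand) encodes a keratin of basal epithelial cells. It had 0.00, 0.0647 and 0.00 CPM in the negative libraries, a single count in all, 2.30, 2.02 and 1.91 in the low and 18.2, 18.2 and 17.9 in the high ones. No libraries of different groups overlapped, and the ratio of high to negative was 881, with a 95% counting interval of 158 to 34815 that covers counting error only. KRT14, on the same chromosome and close in sequence, had 2.18, 2.42 and 2.48 CPM in high cells and also 1 count in negative ones, and reads of such near copies can be split or left uncounted.

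SERPINB2 (chr18:63871692-63903888, plus strand), the plasminogen activator inhibitor PAI-2, had 0.0593, 0.194 and 0.122 CPM in negative, 2.13, 2.38 and 1.87 in low and 24.3, 25.8 and 26.4 in high libraries. Its log2 ratio was 7.61 (SE 0.21), with an adjusted p of 9.8e-23. OASL (chr12:121017763-121039242, minus strand), an antiviral homologue of the oligoadenylate synthetases, had 8.12, 8.54 and 7.70 CPM in negative, 48.0, 45.0 and 44.2 in low and 135, 124 and 131 in high libraries. The 3 groups of OASL lay in that order without overlap, and the high level was 16.01-fold the negative one (log2 ratio 4.00, SE 0.070, adjusted p = 3.2e-27). NOX5 (chr15:68930525-69062762, plus strand), a calcium-activated NADPH oxidase that makes superoxide, went the other way, from 89.2, 89.2 and 75.4 CPM in negative through 26.3, 26.6 and 24.6 in low to 1.53, 1.31 and 1.10 in high libraries. It fell by 5.98 on the log2 scale (SE 0.11, adjusted p = 1.9e-26), to 0.0158 times the negative level.

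**Figure D2:**
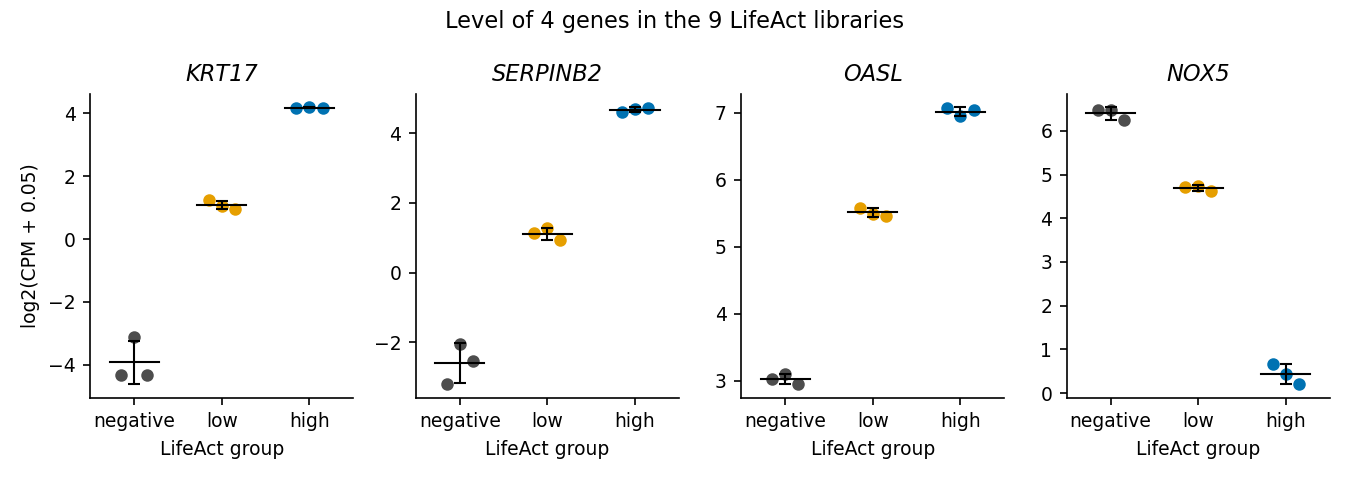
Level of KRT17, SERPINB2, OASL and NOX5 in the 9 LifeAct libraries, as log2(CPM + 0.05) on an axis of its own per gene, against the LifeAct group; points are libraries, long lines means and bars SD (n = 3). In each gene the low libraries sit between the negative and high ones and no groups overlap.

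Among genes with at least 5 CPM on average, the largest rises after KRT17 and SERPINB2 were in genes of varied roles. MYPN, which encodes the sarcomere protein myopalladin, rose from 0.227 to 10.4 CPM, and SPX, which encodes the peptide hormone spexin, from 0.491 to 20.2 CPM. The long noncoding RNA UCA1 had 1.48, 1.75 and 1.96 CPM in negative, 3.67, 5.35 and 4.39 in low and 58.4, 53.4 and 55.4 in high libraries, so that most of its rise lay between low and high. MMP3, the secreted protease stromelysin-1, rose by 4.88 on the log2 scale and NLRP10, a member of the NLR family, by 4.84. SLAMF7, an immune cell receptor, rose by 4.43 (from 3.03 to 65.1 CPM). Complement component C3 had 6.34, 5.76 and 4.03 CPM in negative and 117, 108 and 115 in high libraries, a log2 ratio of 4.40 (SE 0.090). CSF3, the granulocyte colony-stimulating factor, rose by 4.29.

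The largest falls after NOX5 were led by ITGA10 (chr1:145891208-145910111), the alpha subunit of a collagen-binding integrin. It had 258, 249 and 248 CPM in negative, 26.7, 25.6 and 27.2 in low and 6.33, 4.83 and 5.24 in high libraries. Most of the ITGA10 fall was thus already present in the low group, and the full fall was 5.501 on the log2 scale (SE 0.069, adjusted p = 3.6e-30). CCN4, a matricellular protein of the CCN family, fell by 4.56, from 61.7 ± 4.07 to 2.64 ± 0.433 CPM. RAB17, a small GTPase of polarised epithelial cells, fell by 4.43. NIPAL4, a magnesium transporter homologue, fell by 4.18, and SLITRK6, a neuronal transmembrane protein, by 4.07. PECAM1, the adhesion receptor CD31, fell by 3.62, from 92.5 ± 1.69 to 7.47 ± 0.832 CPM. The noncoding RNA LINC01844 fell by 5.12, and the remaining 2 of the 10 largest falls carry only clone names.

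Gene lists written from general knowledge were then counted. Every list count against negative is to be read beside the shares of all genes tested. Of these, 36.0% were higher and 35.2% lower, and 11.4% and 16.4% were so by 2-fold or more. The interferon-stimulated list had the highest median log2 ratio of the 33 lists plotted, at 1.96, and the NADPH oxidase list had the lowest, at -1.01, beside -0.03 for all genes tested.

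**Figure D3:**
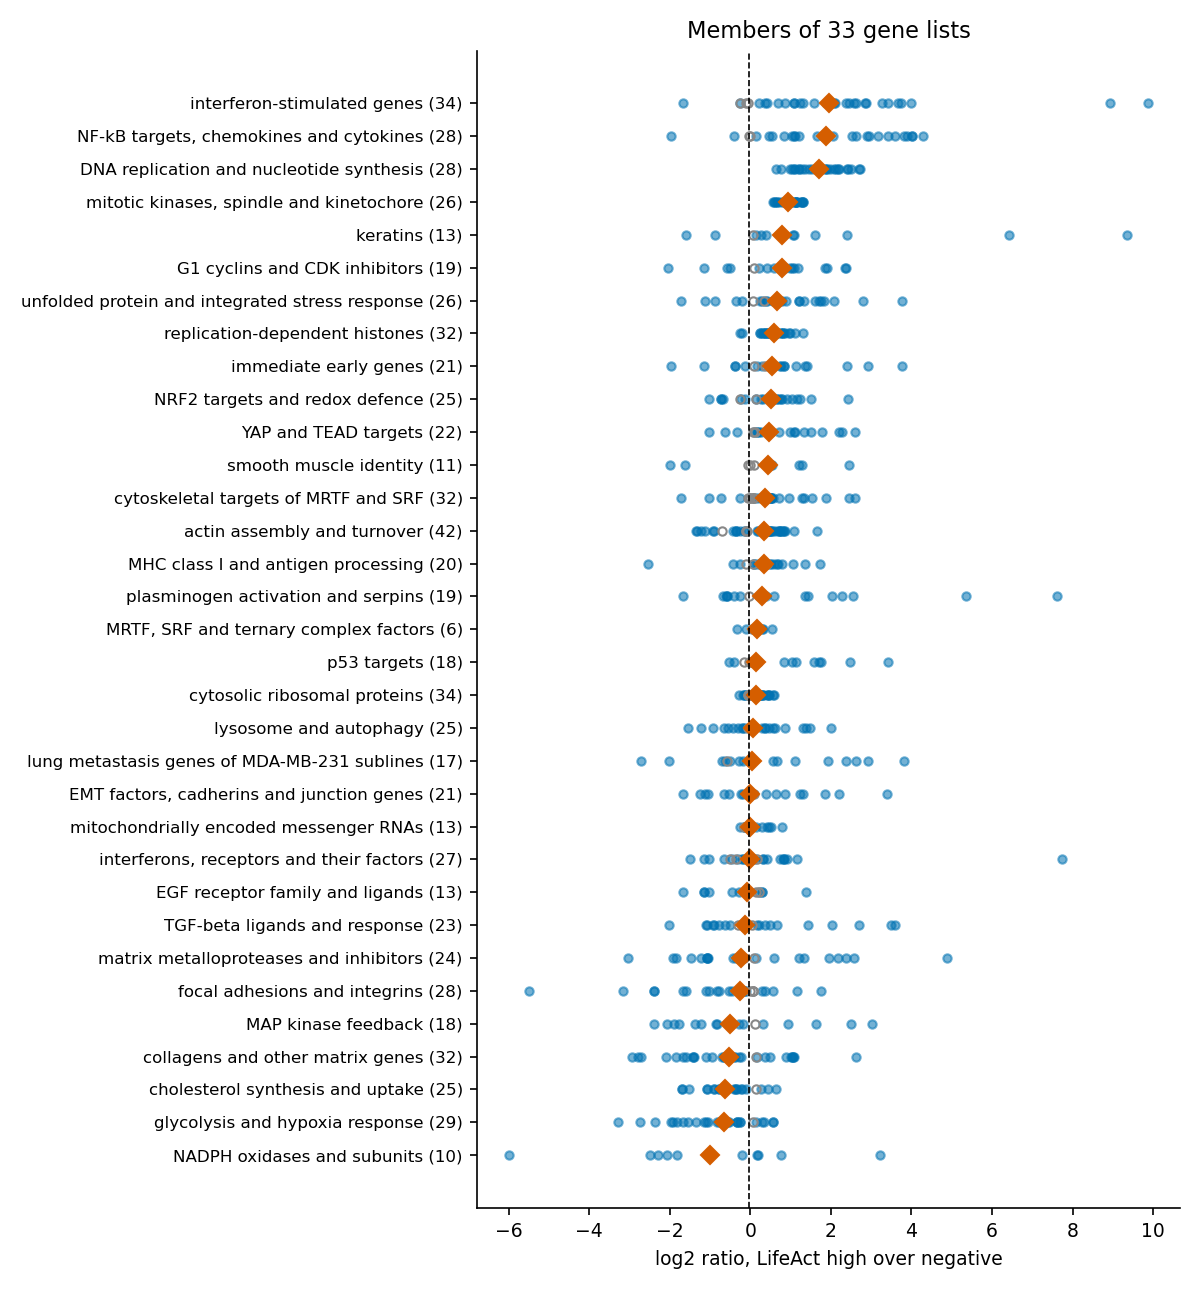
Log2 ratios of LifeAct high over negative for the members of 33 gene lists, with the number of tested members in brackets; filled blue points are called genes, open grey points are not, orange diamonds are list medians and the dashed line is the median of all genes tested. The interferon, NF-kB and replication medians lie farthest to the right, at 1.96, 1.87 and 1.70.

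Interferon-stimulated genes were higher in LifeAct high. Of 34 tested, 29 rose and 2 fell, and 24 rose by 2-fold or more, where 36.0% of all genes rose and 11.4% rose by that much. The IFIT genes encode proteins that bind foreign RNA and block its translation. IFIT2 had 25.7, 25.8 and 28.2 CPM in negative, 94.5, 96.3 and 94.9 in low and 356, 353 and 363 in high libraries. Its groups were far apart relative to the spread within them, and the log2 ratio was 3.75 (SE 0.050, adjusted p = 6.1e-30). IFIT1 rose 10.7-fold, from 12.7, 12.6 and 13.3 to 139, 139.7 and 136 CPM, and IFIT3 rose 7.35-fold, from 42.6, 41.4 and 42.3 to 312.03, 303 and 313 CPM. RSAD2, the antiviral enzyme viperin, and CXCL11, an interferon-induced chemokine, were picked out after their values were seen. RSAD2 had no count in the negative libraries and 6.55, 6.73 and 6.07 CPM in the high ones, at least 105-fold higher with the negative group set to 3 counts in all. CXCL11 likewise went from no count to 3.10, 3.201 and 3.75 CPM, at least 54.2-fold higher. Both bounds lie above the median of the list, so the median does not rest on them. The 2 that fell, TRIM22 (log2 ratio -1.68) and BST2 (-0.27), are restriction factors against viruses, and they too are named after their values were seen. Exons of IFIT2 and IFIT3 overlap those of LIPA, and reads there cannot be told apart without strand.

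The genes that make and sense interferon were called in both directions, in shares near those of all genes. Of 27 interferons, receptors and signalling factors tested, 11 rose and 9 fell, with a median log2 ratio of -0.01. Among all genes tested, 36.0% rose and 35.2% fell, with a median of -0.03. The median of this list changed sign under alternative settings described below. IRF1, a factor that activates interferon genes, rose from 41.9 ± 2.52 to 79.0 ± 4.09 CPM. CGAS, the sensor of cytosolic DNA, rose by 0.82 on the log2 scale and the receptor chain IFNAR1 by 0.73. Among the interferons themselves, the type III interferon IFNL1, named after its values were seen, had no count in negative libraries, 0.00, 0.0595 and 0.130 CPM in low and 1.44, 1.31 and 1.66 in high ones. The high level of IFNL1 was at least 23.9-fold higher, at under 2 CPM. IFNB1, IFNL2 and IFNL3 had too few counts to be tested.

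Chemokines, cytokines and other NF-kB targets were mostly higher as well. Of 28 tested, 24 rose and 2 fell, and 20 rose by 2-fold or more, with a median log2 ratio of 1.87. CXCL8, the neutrophil chemokine interleukin 8, had 25.4, 29.1 and 32.1 CPM in negative, 77.0, 81.7 and 83.6 in low and 416, 438 and 419.9 in high libraries. Its log2 ratio was 3.88 (SE 0.059), with an adjusted p of 1.6e-28. TNFAIP3, the deubiquitinase A20 that feeds back on NF-kB, had 41.8, 45.0 and 44.1 CPM in negative, 44.1, 47.0 and 44.6 in low and 262, 244 and 248 in high libraries. The negative and low libraries of TNFAIP3 overlapped, so its rise lay between low and high. IL6, an inflammatory cytokine, rose 9.05-fold, from 8.06, 9.90 and 9.59 CPM in negative to 86.9, 78.6 and 83.0 in high libraries. PTGS2, the inducible cyclooxygenase, rose 3.81-fold, and the chemokine CXCL1 6.14-fold, though CXCL1, CXCL2 and CXCL3 are near copies whose reads may be split. CSF1, the macrophage colony-stimulating factor, was an exception: it had 892, 864 and 801 CPM in negative and 224, 211 and 215 in high libraries, a fall of 1.98 on the log2 scale (adjusted p = 5.6e-25). The other member that fell, the adhesion receptor ICAM1, did so by 0.41, and is named after its values were seen.

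**Figure D4:**
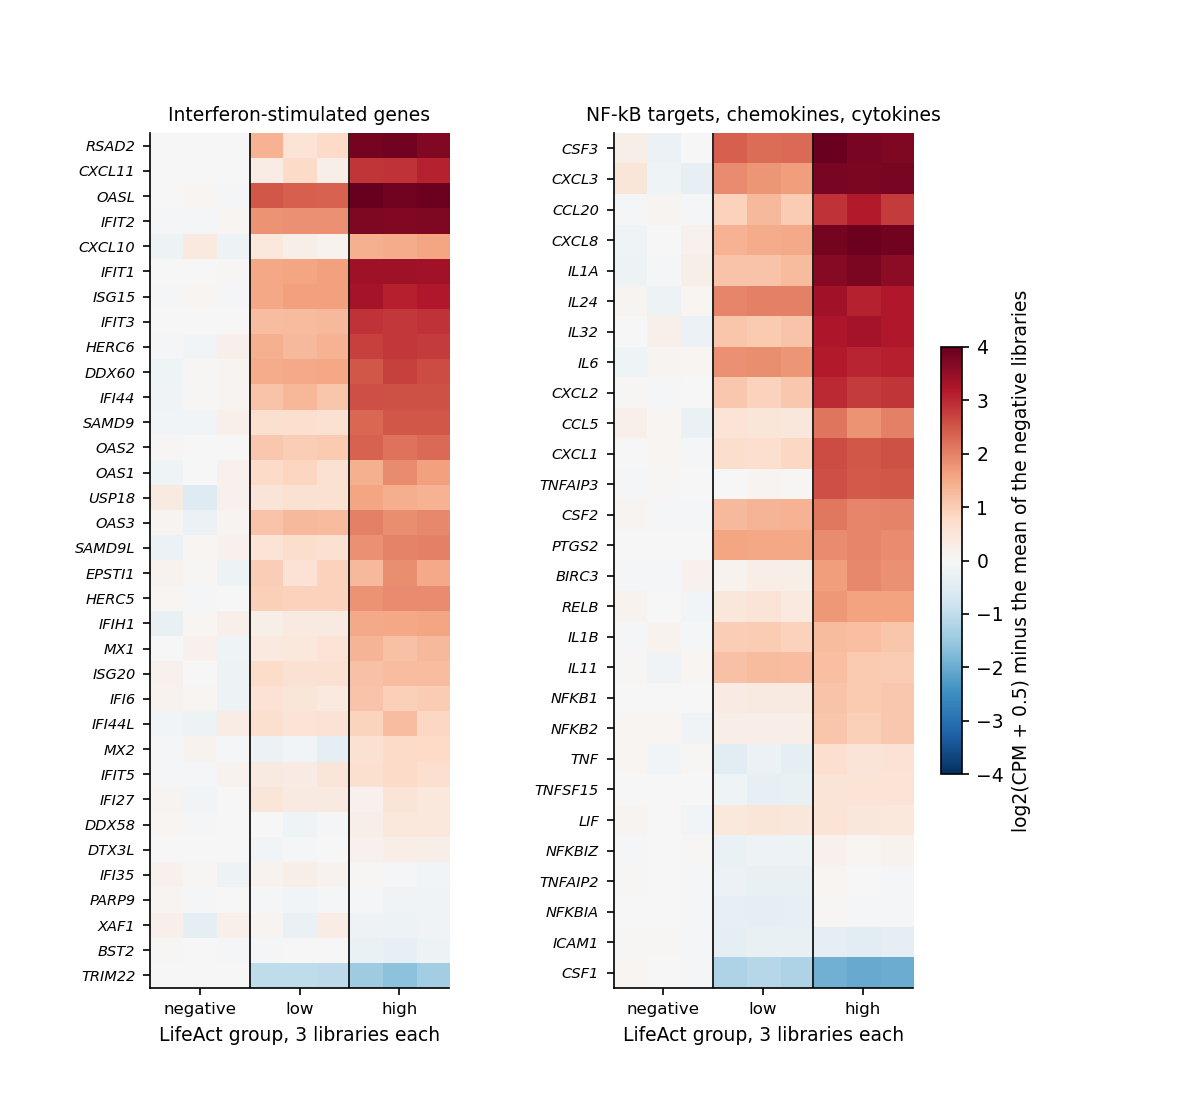
Levels of the 34 interferon-stimulated genes (left) and 28 NF-kB targets (right) tested, in the 9 LifeAct libraries, as log2(CPM + 0.5) minus the mean of the negative libraries; rows are genes ordered by log2 ratio and columns are libraries. Differences span -2.01 to 3.97; most rows darken towards the 3 high libraries on the right, while TRIM22 and CSF1 turn blue.

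Promoter sequences are shown for members of the 3 lists with the highest medians, since the factors known to switch on such genes bind there. The sequences are the 200 bases before the start of the gene, from RefSeq on GRCh38.p14, 5′ to 3′ on the strand of the gene, with a motif found by its letters in capitals. For each list the 2 called members with the smallest p whose 200 bases hold the motif were chosen. Members with smaller p were passed over where no match or no RefSeq entry was found, among them IFIT2, OASL, CXCL8, CDC6 and RRM2. The interferon-stimulated response element was searched as TTTC, any 2 bases and TTTC, the NF-kB motif as GGG, any 2 bases and either TTTCC or TTCCC, and the E2F motif as TTTGGCGC or TTTCCCGC, each on both strands.
IFIT3 (chr10:89327797-89327996, plus strand, interferon-stimulated response element): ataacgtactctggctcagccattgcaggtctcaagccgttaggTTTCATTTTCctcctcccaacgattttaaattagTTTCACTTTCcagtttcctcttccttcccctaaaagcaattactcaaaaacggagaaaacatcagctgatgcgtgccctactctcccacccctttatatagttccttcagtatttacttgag
IFIT1 (chr10:89392423-89392622, plus strand, interferon-stimulated response element): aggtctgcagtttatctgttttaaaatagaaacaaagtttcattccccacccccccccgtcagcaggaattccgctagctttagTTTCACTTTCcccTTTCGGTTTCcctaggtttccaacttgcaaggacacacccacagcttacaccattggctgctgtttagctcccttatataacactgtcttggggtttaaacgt
TNFAIP3 (chr6:137867059-137867258, plus strand, NF-kB motif): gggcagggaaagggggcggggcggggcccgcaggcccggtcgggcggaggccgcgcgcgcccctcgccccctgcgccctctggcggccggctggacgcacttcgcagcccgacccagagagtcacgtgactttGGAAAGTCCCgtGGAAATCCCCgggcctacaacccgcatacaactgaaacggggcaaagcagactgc
IL6 (chr7:22727000-22727199, plus strand, NF-kB motif): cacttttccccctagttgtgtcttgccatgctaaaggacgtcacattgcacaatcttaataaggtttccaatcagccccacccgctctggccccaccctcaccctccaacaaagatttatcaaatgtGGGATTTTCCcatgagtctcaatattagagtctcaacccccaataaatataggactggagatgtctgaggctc
UHRF1 (chr19:4909301-4909500, plus strand, E2F motif): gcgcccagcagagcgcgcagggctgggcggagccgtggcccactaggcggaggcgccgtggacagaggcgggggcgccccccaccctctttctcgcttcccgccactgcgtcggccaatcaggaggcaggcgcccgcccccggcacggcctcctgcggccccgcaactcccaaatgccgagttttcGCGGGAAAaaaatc
MCM3 (chr6:52284743-52284942, minus strand, E2F motif): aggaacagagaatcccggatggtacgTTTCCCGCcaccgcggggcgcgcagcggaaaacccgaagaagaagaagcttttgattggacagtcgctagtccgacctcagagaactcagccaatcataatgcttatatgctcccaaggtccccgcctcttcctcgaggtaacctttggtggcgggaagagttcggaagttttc
IFIT3 holds its matches 156 and 122 bases before the start, counted to the first base of each, and the 2 matches of IFIT1 begin no more than 116 bases before it. TNFAIP3 has 2 matches, 67 and 55 bases before its start, and IL6 has 1 at 73 bases. In windows of 250 bases before to 50 after the start, 21 of the 27 interferon-stimulated genes with a RefSeq entry held the response element (77.8%), against 4.38% of 27305 genes with an entry and 4.09% of those tested. The NF-kB motif was in 12 of 23 NF-kB targets (52.2%), against 4.71% of all genes with an entry and 5.99% of those tested. The E2F motif was in 14 of 24 replication genes (58.3%) and 1 of 21 mitosis genes (4.76%), against 2.75% of all and 4.23% of those tested. The lists were written from general knowledge of such targets, and these shares count tested members whatever their direction. They describe the lists and not the difference between LifeAct high and negative cells. A match is a match of letters and shows no binding, and the part of these factors was not tested.

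Genes of DNA replication were higher in LifeAct high. All 28 tested rose, 25 of them by 2-fold or more, with a median log2 ratio of 1.70. Among all genes tested, 36.0% rose and 11.4% rose by 2-fold or more. CDC6, which loads the replicative helicase onto origins, had 21.2, 23.4 and 20.04 CPM in negative, 73.6, 77.0 and 74.5 in low and 140.0, 139 and 139 in high libraries. The groups of CDC6 did not overlap, and its log2 ratio was 2.69 (SE 0.057, adjusted p = 2.8e-25). RRM2, a subunit of ribonucleotide reductase that makes deoxynucleotides, rose 5.27-fold, from 30.5, 33.1 and 32.6 to 174, 168 and 165 CPM. MCM4, a subunit of the helicase, rose 5.37-fold and FEN1, the flap endonuclease of lagging strand synthesis, 3.69-fold. UHRF1 and MCM3, whose promoters are printed above, rose by 2.17 and 1.46 on the log2 scale and are named after their values were seen.

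Mitotic genes rose less far. All 26 tested rose, 12 by 2-fold or more, with a median log2 ratio of 0.93. TOP2A, the topoisomerase that untangles sister chromatids, had 216, 222 and 254.40 CPM in negative, 468, 451 and 465 in low and 521, 591 and 583 in high libraries. TPX2, a spindle assembly factor, rose 2.20-fold, CDK1, the mitotic kinase, 2.48-fold and CDC20, an activator of the anaphase-promoting complex, 2.36-fold. Of 19 G1 cyclins, E2F factors and CDK inhibitors, 14 rose and 4 fell. E2F1, the activator of replication genes, had 14.7, 14.2 and 12.6 CPM in negative and 77.3, 66.3 and 71.4 in high libraries, and the cyclin CCND1 rose from 297 ± 11.4 to 634 ± 5.47 CPM. The inhibitors differed among themselves: CDKN1A rose 2.05-fold, while CDKN1C fell by 2.04 on the log2 scale, from 20.7, 19.9 and 21.7 to 5.37, 4.90 and 4.75 CPM.

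Replication-dependent histone genes, whose messages lack a poly(A) tail, followed another order. Of 32 tested, 30 were higher in high than in negative cells and 2 were lower, with a median log2 ratio of 0.58 and only 2 rising by 2-fold. H3C2 had 84.5, 82.5 and 79.1 CPM in negative, 209, 215 and 199.5 in low and 144, 144 and 146 in high libraries, so that the low group was above both others. For 1 of the 32 the mean of the low group lay between the others, where it did for 83.3% of all called genes. Against the low group, 27 of the 32 were lower in high cells and 1 was higher. H4C8, with 75.5, 77.5 and 75.9 CPM in low and 67.1, 77.8 and 80.0 in high libraries, overlapped between these groups. The histone genes are near copies of each other, so single members are uncertain.

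The cytoskeletal targets of MRTF and SRF rose modestly. Of 32 tested, 22 rose and 4 fell, 6 and 2 by 2-fold or more, with a median log2 ratio of 0.38. Of the 6 MRTF, SRF and ternary complex factors tested, 3 rose and 2 fell, none by 2-fold. MRTFA, whose product is held by actin monomers, had 31.1, 28.2 and 25.7 CPM in negative, 33.1, 37.0 and 30.7 in low and 43.4, 38.5 and 40.8 in high libraries, a log2 ratio of 0.53 (SE 0.077). SRF rose by 0.29, from 69.9, 69.3 and 59.8 to 85.8, 74.9 and 81.3 CPM, and MRTFB fell by 0.33. Of the ternary complex factors, which compete with MRTF for SRF, ELK1 rose by 0.31, and ELK3 and ELK4 had log2 ratios of 0.03 and -0.12. The call of ELK4 (adjusted p = 0.029) was lost in DESeq2 (adjusted p = 0.0654) and without negative replicate 3 (0.156).

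Among the targets, the cytoplasmic actins rose and the smooth muscle actin did not pass the test. ACTB had 3224, 3147 and 2917 CPM in negative, 4027, 4148 and 4050.3 in low and 4761, 4373 and 4588 in high libraries, a log2 ratio of 0.56 (SE 0.037), and ACTG1 rose by 0.52. ACTA2 had 3.02, 1.94 and 2.08 CPM in negative and 2.27, 2.48 and 2.87 in high libraries, which overlap, and its log2 ratio was 0.10 (SE 0.23, adjusted p = 0.7). TAGLN, the actin-binding protein transgelin, rose from 8.30, 7.77 and 5.87 to 10.5, 10.3 and 10.7 CPM, and CNN1, calponin 1, from 0.415, 0.259 and 0.794 to 2.97, 2.55 and 2.65 CPM. Exons of TAGLN overlap those of PCSK7, which averaged 50.9 CPM, and reads there cannot be told apart without strand. MYL9, a regulatory light chain of myosin II, rose 2.42-fold and TPM1, a tropomyosin, 1.39-fold. VCL, the focal adhesion protein vinculin, was at 483 ± 6.46 CPM in negative and 505 ± 15.1 CPM in high cells (adjusted p = 0.11).

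The 5 largest rises on this list were in ANKRD1, CNN1, TUFT1, LIMA1 and CCN1, of which ANKRD1 and CCN1 are also on the list of YAP and TEAD targets. ANKRD1, a mechanosensitive ankyrin repeat protein, had 135, 135 and 130.4 CPM in negative, 324, 329 and 334 in low and 828, 786 and 836 in high libraries. Its log2 ratio was 2.61 (SE 0.040, adjusted p = 2.5e-28). CCN1, a matricellular protein, rose 2.502-fold, from 428, 412 and 413 to 1084, 1012 and 1039 CPM. CCN2, its close relative, had 144, 137 and 137 CPM in negative, 218.31, 215 and 220.1 in low and 203, 191 and 199 in high libraries, so that it rose against negative but lay below the low group. LIMA1, which stabilises filaments, rose 2.89-fold and TUFT1 3.67-fold. Of 22 YAP and TEAD targets, 17 rose and 3 fell (8 and 1 by 2-fold or more), with a median log2 ratio of 0.48. They included AMOTL2, a junctional regulator of YAP (3.45-fold), and the receptor kinase AXL (1.63-fold).

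Genes of actin assembly and turnover were called in both directions. Of 42 tested, 25 rose and 13 fell, with a median log2 ratio of 0.33. TMSB4X, thymosin beta 4, which sequesters actin monomers, fell from 1318, 1265 and 1279 to 617, 561 and 579.6 CPM. GSN, gelsolin, which severs filaments, fell by 1.34 on the log2 scale, and SSH1, the phosphatase that activates cofilin, by 1.33. DIAPH3, a formin that elongates filaments, rose 3.14-fold, from 37.0 ± 3.09 to 116 ± 5.33 CPM. Of 28 focal adhesion and integrin genes, 19 fell and 5 rose, with a median log2 ratio of -0.26. Besides ITGA10, the integrin chains ITGA1, ITGB4 and ITGB5 fell by 2.40, 2.39 and 1.68.

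Immediate early genes, the first targets of growth factor signals, were mostly higher, and the feedback inhibitors of MAP kinase signalling mostly lower. Of 21 immediate early genes, 14 rose and 5 fell. ATF3, a stress-induced factor, had 11.6, 9.77 and 10.8 CPM in negative, 26.5, 27.4 and 25.1 in low and 154, 147 and 141 in high libraries, a log2 ratio of 3.78 (SE 0.068). EGR1, a zinc finger factor, rose 2.65-fold and FOSL1, a subunit of AP-1, 2.57-fold. Of 18 feedback genes, 12 fell and 5 rose, 6 and 3 of them by 2-fold or more, with a median log2 ratio of -0.51. Their log2 ratios ran from -2.39 to 3.03, so the largest change on this list was a rise. DUSP4, a phosphatase of MAP kinases, had 1509.8, 1503 and 1474 CPM in negative, 794, 801 and 785 in low and 364, 356 and 355 in high libraries. The groups of DUSP4 were well apart, and it fell by 2.06 on the log2 scale (adjusted p = 2.1e-27). DUSP6 fell by 1.90, and the Sprouty inhibitors SPRY1 and SPRY4 by 2.39 and 1.77. Of 13 genes of the EGF receptor family and its ligands, 4 rose and 6 fell: the ligand HBEGF rose 2.63-fold, while the ligand EPGN, the receptor ERBB3 and the feedback inhibitor ERRFI1 fell by 1.68, 1.02 and 1.16.

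Matrix genes were mostly lower. Of 32 collagens, laminins and other matrix genes, 21 fell and 10 rose, 11 and 6 of them by 2-fold or more, with a median log2 ratio of -0.52. LAMA5, a laminin chain of basement membranes, had 1374, 1336 and 1226 CPM in negative, 623, 642 and 617 in low and 207, 183 and 179.8 in high libraries, a fall of 2.79 on the log2 scale (adjusted p = 3.9e-27). FN1, fibronectin, had 3104, 3134 and 2843 CPM in negative, 1379.6, 1399 and 1385 in low and 897, 806 and 836 in high libraries. Both genes fell in steps through the low group. The laminin chains LAMA3 and LAMB1 fell by 2.09 and 1.68. COL1A1, a chain of type I collagen, was at 11.2 ± 1.80 and 12.3 ± 0.551 CPM (adjusted p = 0.23).

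Proteases of the matrix moved in opposite directions. Of 24 metalloproteases and inhibitors, 9 rose and 13 fell. The secreted collagenase MMP1 rose from 20.7, 21.4 and 20.04 to 108, 110.1 and 106 CPM, as did MMP3, while the membrane-bound MMP14, ADAM8 and ADAM19 fell by 1.47, 1.84 and 1.91. Of 19 genes of plasminogen activation and the serpins, 10 rose and 7 fell. The rises include that of SERPINB2, described above. F3, tissue factor, the starter of coagulation, rose 4.81-fold, and TFPI2, an inhibitor of serine proteases, 5.85-fold.

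Genes of glycolysis and the response to hypoxia were mostly lower. Of 29 tested, 23 fell and 5 rose, 12 and 0 by 2-fold or more, with a median log2 ratio of -0.64. NDRG1, a stress gene induced by hypoxia, had 3770.2, 3761 and 3494 CPM in negative, 1200.3, 1167 and 1194 in low and 388, 372 and 369 in high libraries. It fell by 3.29 on the log2 scale (adjusted p = 1.5e-30), to 0.102 times the negative level. CA12, a carbonic anhydrase, fell by 2.74, the aldolase ALDOC by 2.37, and PFKFB4, which makes an activator of glycolysis, by 1.82. Genes of cholesterol synthesis and uptake fell too, 21 of 25, with 3 rising and a median of -0.64. SREBF1, a master factor of lipid synthesis, had 191, 187 and 169.8 CPM in negative, 140.2, 143 and 144 in low and 61.8, 50.7 and 56.7 in high libraries. INSIG1, which retains that factor in the endoplasmic reticulum, fell by 1.51 and HMGCS1, an enzyme of the mevalonate pathway, by 1.08.

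The NADPH oxidases and their subunits were called in all 10 cases tested, 6 lower and 4 higher, where 71.1% of all genes tested were called. Besides NOX5, the activator NOXA1 fell by 2.48 and the dual oxidase DUOX1 by 2.06. Of 25 targets of NRF2 and other redox genes, 17 rose and 6 fell, with a median log2 ratio of 0.52. OSGIN1 rose 5.37-fold, HMOX1, heme oxygenase, 2.82-fold, GCLM, which helps make glutathione, 2.34-fold and SOD2, the mitochondrial superoxide dismutase, 1.72-fold. Of 26 genes of the unfolded protein and integrated stress responses, 19 rose and 5 fell. DDIT3, the factor CHOP, rose from 14.1, 13.3 and 12.6 to 97.9, 85.8 and 94.0 CPM, while DDIT4, an inhibitor of mTORC1, fell by 1.71. DDIT3 shares exon bases with MARS1, as do LAMA5 with ADRM1, SREBF1 with RAI1 and FEN1 with FADS2, so reads there cannot be assigned with certainty.

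Most keratins and genes of antigen presentation rose, and a mixed list of line and luminal markers was called in both directions. Of 13 keratins, 10 rose and 2 fell. KRT81 rose 3.03-fold and KRT80 1.73-fold, while KRT19, a keratin of simple epithelia, fell from 259.9, 261 and 233 to 89.1, 80.3 and 78.5 CPM. Of 20 genes of MHC class I and antigen processing, 13 rose and 3 fell. HLA-B rose 2.58-fold and the peptide transporter TAP2 3.33-fold, while ERAP2, a peptide trimming enzyme, fell from 487, 502 and 521 to 85.2, 90.6 and 86.2 CPM, and HLA reads are hard to assign to single genes. That list joins markers of the line with markers of the luminal breast cells it is not. Of its 14 tested members, 6 rose and 5 fell, with S100A4 falling by 1.13 and CD44 rising 1.72-fold.

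Markers of other cell types were low or moved in both directions. The 10 leukocyte markers summed to 13.66 to 16.01 CPM in negative, 10.82 to 11.01 in low and 7.07 to 9.11 in high libraries, with MS4A1 at 0 counts in the negative and high libraries. Of the 4 tested, PTPRC, CD14 and CSF1R fell and ITGAM rose. The 8 endothelial markers summed to 189 to 202 CPM in negative and 134 to 144 in high libraries, and PECAM1 was the member that fell by most. The 8 fibroblast markers summed to 35.6 to 38.8 and 24.7 to 27.4 CPM, and the 12 luminal epithelial markers to 846 to 939 and 720 to 805 CPM. Their part in the results above was not tested.

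LifeAct high cells also differed from LifeAct low cells. In that comparison, which shares the high libraries with the one above, 5828 genes were higher (26.6%) and 5176 lower (23.7%), together 50.3% of those tested, and 57.8% did not overlap. Scaled by library totals alone, 4655 were higher and 6437 lower, and the median log2 ratio of all genes was -0.11, against -0.04 with TMM. Changes of 2-fold or more were 683 higher (3.12%) and 1354 lower (6.19%). The largest rises over the low group were UCA1 (3.65, SE 0.097), SERPINB2 (3.59, SE 0.12), ALOXE3, an epidermal lipoxygenase (3.14, SE 0.17), and KRT17 (3.12, SE 0.13), all log2 ratios. NOX5 fell by 4.27 and CCN4 by 2.76. The mitochondrial ribosomal RNAs were among the 4 largest falls: MT-RNR1 had 2.37, 3.82 and 1.96 CPM in negative, 102, 80.0 and 27.5 in low and 2.75, 3.66 and 6.07 in high libraries. Both MT-RNR1 and MT-RNR2 varied several-fold within the low group, and the libraries were depleted of ribosomal RNA.

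The gene groups divided by how far they moved between low and high. Interferon-stimulated genes rose again, 28 of 34 with 2 falling and a median log2 ratio of 1.09, where the median of all genes was -0.04. NF-kB targets did so in 24 of 28, with 1 falling and a median of 1.25. Replication genes rose in 20 of 28, with 1 falling, and mitotic genes in 14 of 26, with 1 falling. The medians of replication and mitosis against the low group, 0.24 and 0.12, were small beside those against the negative group. Of 32 MRTF and SRF targets, 22 rose and 5 fell against the low group. SRF itself had a log2 ratio of -0.00 (adjusted p = 0.95) and MRTFA one of 0.29 (0.0015).

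The response of LifeAct high cells was set against that of LM2 cells to caMKL1, as a test of the difference between the 2 log2 ratios over 12 libraries. The experiments share no control, but caMKL1 libraries were selected for poly(A) RNA and LifeAct libraries depleted of ribosomal RNA, so only ratios within an experiment are compared. Of 23557 genes tested, the LifeAct ratio was the higher in 7094 (30.1%) and the lower in 6461 (27.4%), together 57.5%. With library totals the split was 9206 and 4722, and the median difference of all genes was 0.39, against 0.03 with TMM.

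The MRTF and SRF targets responded far less in LifeAct high cells. Of 34 tested, the LifeAct ratio was lower in 31 and higher in 2, with a median difference of -1.98, and 29 and 2 with library totals. ACTA2 rose from 0.849 ± 0.221 to 2723 ± 126 CPM with caMKL1 (SD, n = 3), a log2 ratio of 11.63 against 0.10 in LifeAct high cells. TAGLN had log2 ratios of 8.44 with caMKL1 and 0.52 in LifeAct high, and the difference was -7.86 (SE 0.21, adjusted p = 6.4e-19). ACTB had 3.32 and 0.56, and CCN2 5.11 and 0.51, also called. ANKRD1 was nearer, with 3.54 and 2.61 (adjusted p of the difference 8.8e-07). CNN1 had 2.47 and 2.46, and no difference passed the test (0.04, SE 0.33, adjusted p = 0.93). LIMA1 rose by more in LifeAct high cells, 1.53 against 1.09 (adjusted p = 6.6e-05).

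**Figure D5:**
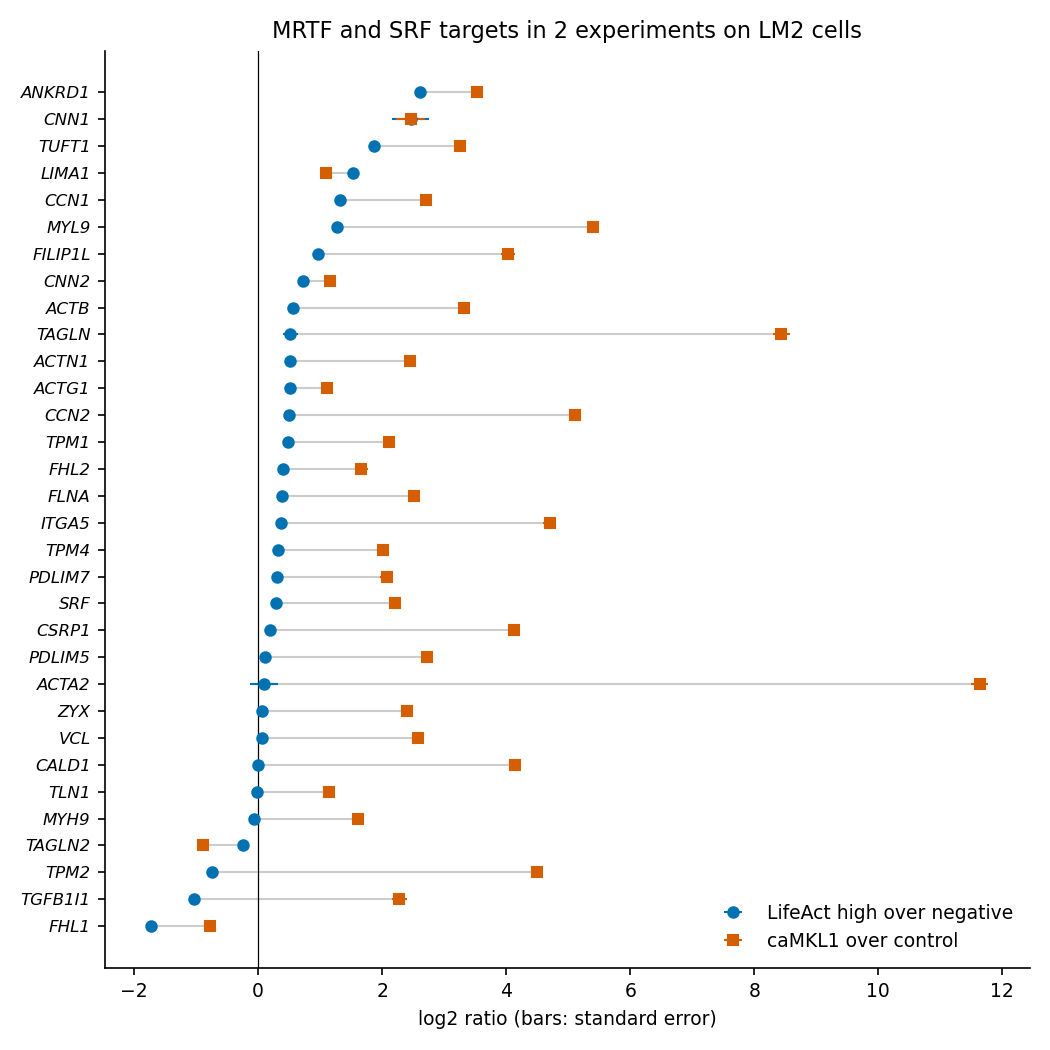
Log2 ratios of 32 MRTF and SRF targets in LifeAct high over negative (blue circles) and in caMKL1 over control (orange squares), with standard errors as bars and 1 row per gene. ACTA2 and TAGLN have the widest gaps, at 11.63 and 8.44 with caMKL1, while CNN1 is at 2.47 and 2.46.

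Genes outside the cytoskeleton differed between the 2 responses in both directions. KRT17 rose in both, from 0.179 ± 0.0799 to 1463 ± 236 CPM with caMKL1, and the difference of its ratios did not pass the test (-3.61, SE 2.39, adjusted p = 0.21), though it did in DESeq2 and limma voom. Without negative replicate 2, which holds the single negative count of KRT17, the difference was -1.77 (adjusted p = 0.784). SERPINB2 rose by 1.39 with caMKL1 and by more in LifeAct high cells (difference 6.26, SE 0.64, adjusted p = 1.1e-08). All 28 replication genes and all 26 mitotic genes had the higher ratio in LifeAct high cells, with median differences of 3.73 and 3.50. CDC6 had a log2 ratio of -2.17 with caMKL1 against 2.69, and TOP2A one of -2.69 against 1.29. CXCL8 had -1.86 against 3.88, and FN1, with 4.82 against -1.84, showed the opposite contrast. Of 34 interferon-stimulated genes the LifeAct ratio was higher in 22 and lower in 3, and OASL, IFIT2 and IFIT3 rose in both experiments, with log2 ratios with caMKL1 of 1.67, 1.67 and 1.32. NOX5 fell in both, by 3.55 with caMKL1, to a smaller extent than in LifeAct high cells (difference -2.39, SE 0.63, adjusted p = 0.0023).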

How the data were processed

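RNA was sequenced from 9 LifeAct and 9 LM2 expression libraries, and the values used are raw counts of read pairs per gene name that the authors deposited. Per the file headers these counts came from featureCounts 2.0.1 on STAR alignments, over exons of the Ensembl release 103 annotation of GRCh38, with no strand option, so reads of overlapping genes cannot be told apart by strand. For STAR, no version is given in the sources used here. The submitters' processing notes also name DESeq2, hg38 and mm10.

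Counts were fitted in edgeR 4.0.16 (R 4.3.3) with TMM scaling, a filter at a minimum count of 10, 1 mean per group over the 9 LifeAct libraries and the quasi-likelihood F test, with Benjamini-Hochberg adjustment over all genes tested at 0.05 and a prior count of 0.125. All adjusted p-values in the text are from this fit unless another tool is named. Each standard error (SE) of a log2 ratio is the size of that ratio divided by the square root of its F statistic. The difference of the LifeAct high and caMKL1 ratios was tested in the same way over 12 libraries. The fit of LifeAct high against negative and that of the difference from caMKL1 were tested on simulated data. The simulated data changed a far smaller share of genes than was called here, so they cannot speak to scaling or error rates at that share. Alternatives were DESeq2 1.42.0, limma 3.58.1 voom, DESeq2 size factors, library totals, no filter, a minimum count of 50, a replicate block, a fit of the 6 libraries alone and leaving out each replicate. Folds against a group with no count set it to a floor of 3 counts over the group, and intervals are exact at 95% and cover counting error only.

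Members and lists were chosen with earlier results of these data known. The genes named are the 4 marker genes and 13 genes of the MRTF and SRF pathway, the 10 largest rises and falls against negative and the 4 against low (at least 5 CPM on average, no overlap), and up to 4 members of each list with the smallest p. Genes named by their values are said to be so, and genes with clone names are counted only. Names on more than 1 chromosome (31) have no coordinates. Promoters came from RefSeq, and those printed leave out chromosome 8. No column of counts was left unmatched. The mouse libraries and the LM2 libraries with MKL1 were not used here. Replicates of a group differed by more than sampling noise. Values of some list members are not reported here.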

Additional observations from a re-analysis of the deposited data

How the results depend on the processing

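Of 168 called genes named for LifeAct high against negative, 0 reversed under the 17 alternatives run. The genes called numbered 11456 to 17141 over all of these and 14840 to 15889 with 1 replicate left out. Against low, 9223 to 11684 were called (9816 to 11684 with 1 replicate left out), and for the difference from caMKL1 11194 to 14267 (13020 to 13974). With a minimum count of 50, which tests 14092 genes, 1248 were higher and 1811 lower by 2-fold or more against negative, and 315 and 624 against low. ELK4 was also lost with no filter, in the fit of 6 libraries alone and without high replicates 1 or 3. The genes that changed sign were not called in the fit reported, and the cause was not tested. Against negative, VCL had -0.0137 and ELK3 -0.0474 at a minimum count of 50, and with 1 replicate left out ACTA2 ran from -0.0160 (without negative replicate 2) to 0.320. Against low, SRF had 0.00678 in DESeq2 and 0.00819 with its size factors. With 1 replicate left out SRF ran from -0.0502 to 0.0480 against low, and ACTA2 from -0.294 to 0.0838. CNN1 in the difference from caMKL1 ran from -0.246 (without negative replicate 2) to 0.579. The difference for KRT17 was -3.28 in DESeq2 (adjusted p = 0.0189) and -4.19 in limma voom (adjusted p = 0.0105), and it passed in no other alternative, running from -4.08 to -1.77 with 1 replicate left out.

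The shared replicate numbers did not pair the samples: deviations of same-numbered libraries had correlations from -0.033 to 0.0020. With the replicate block, 15518 genes were called against negative, 11020 against low and 13459 in the difference from caMKL1. Of genes under 1 CPM, 46.8% were called, and the part of depth in this share was not tested.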

Other observations

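Several groups not described above were called in both directions, as were all genes tested (36.0% higher and 35.2% lower). Of 23 TGF-beta ligands and response genes, 10 rose and 11 fell: INHBA, a subunit of activin A, rose from 2.88 ± 0.909 to 34.7 ± 2.03 CPM (SD, n = 3) and BAMBI, a decoy receptor, rose 11.3-fold, while LTBP1, which stores latent TGF-beta in matrix, and TGFBI fell by 2.01 and 0.89 on the log2 scale. Of 17 lung metastasis genes of MDA-MB-231 sublines, 8 rose and 7 fell. Of 21 EMT factors, cadherins and junction genes, 8 rose and 8 fell. The factors SNAI2 and ZEB2 rose 3.60-fold and 1.83-fold, the tight junction gene CLDN1 rose 10.5-fold, and CLDN7 and the junction gene JUP fell by 1.04 and 1.68. Of 11 smooth muscle genes, 6 rose and 2 fell, and MYH11, smooth muscle myosin, fell by 1.62. MYH11 shares exon bases with NDE1, which averaged 53.7 CPM, so reads there cannot be assigned with certainty.

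Of 18 p53 targets, 9 rose and 2 fell, with AEN, an apoptosis-enhancing nuclease, rising 5.60-fold, PMAIP1 3.01-fold and SESN2 3.27-fold. Of 25 lysosome and autophagy genes, 11 rose and 10 fell, and the protease CTSS rose 4.01-fold. Of 34 cytosolic ribosomal protein genes, 21 rose and 5 fell, none by 2-fold, with a median log2 ratio of 0.14. Of 13 mitochondrially encoded messages, 6 rose and 4 fell. The nuclear long noncoding RNA NEAT1, singled out after its values were seen, had 6848, 6915 and 6942 CPM in negative, 2636, 2618 and 2649 in low and 843, 939 and 854 in high libraries. It fell by 2.97 on the log2 scale (SE 0.038, adjusted p = 4.3e-30), and the 3 groups did not overlap.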
